A study of Mus musculus with 6 samples.

Results

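Inhibitors of Wnt signalling were examined in mouse colonic crypts, the epithelial glands of the colon, through 8 genes: Axin2, Nkd1, Rnf43, Apcdd1, Kremen1, Wif1, Dkk2 and Dkk3. The members were all 13 probe sets annotated to exactly 1 of these genes, of 22626 probe sets on the array that are not controls and of 12393 genes that have a probe set of their own. No probe set was shared between a member and another gene. Gene expression was measured on Affymetrix arrays in 3 groups of 2 arrays, and every animal was a male heterozygous Lgr5-lacZ mouse, in which lacZ reports the stem cell receptor gene Lgr5. Control crypts came from the pooled distal colons of 2 untreated mice per array, aged 6 to 8 weeks. DSS crypts came from 2 mice per array of that age on day 2 of 1% dextran sulfate sodium (DSS) in drinking water, an agent that injures the colonic epithelium. Tumor crypts came from 12 pooled adenomas of 2 mice per array. Those mice received the carcinogen azoxymethane (AOM) at 12.5 mg per kg at an age of 6 to 8 weeks, then 3 cycles of DSS at 2, 1.5 and 1.0%, and are labelled 90 days after AOM. The tumor mice thus differed from the controls in age, carcinogen and DSS history, and these cannot be told apart. Each array is a pool, so the spread between arrays is not that between single mice, and the number of arrays limits the precision. The study calls the 2 arrays of a group independent biological replicates.

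Wnt proteins bind Frizzled receptors and the co-receptors LRP5 and LRP6, which stops a cytoplasmic destruction complex from degrading beta-catenin. Beta-catenin then acts with TCF/LEF factors in the nucleus and, at the crypt base, sustains stem cells and proliferation. Several of its target genes encode inhibitors of the same pathway, so that signalling limits itself. Axin2, the scaffold of the destruction complex, and Nkd1, which binds Dishevelled, act inside the cell. Rnf43, a ubiquitin ligase that removes Frizzled from the surface, Apcdd1, which binds Wnt and LRP5, and Kremen1, a receptor for Dickkopf proteins, lie in the membrane. Wif1, which binds Wnt ligands, Dkk2, a ligand of LRP5 and LRP6, and Dkk3, a divergent Dickkopf whose place in the pathway is less settled, are secreted. Not all of these are established feedback targets: Axin2, Nkd1 and Rnf43 are the best known.

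RefSeq promoter windows (build GRCm38.p6) were found for 5 of the genes, namely Axin2, Nkd1, Wif1, Dkk2 and Rnf43, the last with 2 start sites. Windows for Apcdd1, Kremen1 and Dkk3 were not used here. The 250 bases before the start site are shown for genes that were higher together in tumor crypts, from an intracellular inhibitor and from the secreted ones. Capitals mark the GC box GGGCGG on either strand and likewise the TATA box TATAAA, where a match on the opposite strand reads as its reverse complement.
Axin2, chr11:108920099-108920348, plus strand: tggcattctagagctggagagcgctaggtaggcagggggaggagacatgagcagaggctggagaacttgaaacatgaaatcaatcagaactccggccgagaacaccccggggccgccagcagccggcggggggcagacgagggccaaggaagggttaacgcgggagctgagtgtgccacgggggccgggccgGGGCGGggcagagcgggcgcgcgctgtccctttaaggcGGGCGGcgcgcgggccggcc
Wif1, chr10:121033754-121034003, plus strand: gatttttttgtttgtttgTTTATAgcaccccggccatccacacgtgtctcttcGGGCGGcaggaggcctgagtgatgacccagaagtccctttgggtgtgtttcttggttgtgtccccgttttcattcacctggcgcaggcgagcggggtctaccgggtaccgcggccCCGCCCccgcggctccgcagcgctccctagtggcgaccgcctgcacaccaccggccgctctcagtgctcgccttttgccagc
Dkk2, chr3:132085042-132085291, plus strand: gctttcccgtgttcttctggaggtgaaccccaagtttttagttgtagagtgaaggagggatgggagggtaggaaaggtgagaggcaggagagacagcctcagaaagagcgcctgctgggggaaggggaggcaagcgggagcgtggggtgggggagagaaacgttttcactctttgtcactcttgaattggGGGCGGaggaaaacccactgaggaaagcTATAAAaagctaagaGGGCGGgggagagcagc

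GGGCGG occurred in 3 of the 6 member windows (Axin2, Wif1 and Dkk2) and in 32.7% of all 32851 promoter windows of that length. TATAAA occurred in 2 of the 6 and in 12.4% of all. In Dkk2 it began 32 bases before the start site, and in Wif1, on the opposite strand, 232 bases before it. Spellings of the TCF/LEF core were searched on both strands, namely CTTTGAA, its variant CTTTGAT, the spelling CTTTGTA, plus finally CTTTGTT. None of them was in the 6 member windows, whereas 14.8% of all windows held at least 1. That says only that these letters were not in these 250 bases. GC content ranged from 44.4% in a window of Rnf43 to 69.2% in that of Axin2.

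The deposited values are linear MAS5 intensities, 1 per probe set and array. The median over an array was 94.2 to 131, and 17.8, the 25th percentile of all values, was added before taking log2. All log2 changes below are on that scale, which understates the change of probe sets with low values. Tests were made with limma over the 12146 probe sets that exceeded the array median on 2 or more arrays, with Benjamini-Hochberg adjustment over all of them. Of the 13 member probe sets, 11 passed this filter, for 7 of the 8 genes. Only those of Axin2 (1436845_at) and Rnf43 exceeded an array median outside the tumor group. The other 9 passed through the tumor arrays, so for them a difference between tumor and other crypts is partly set by the filter, and counts over the 11 support nothing. Results without the filter are therefore given too, though the members were chosen with earlier results of these data known.

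**Figure D1:**
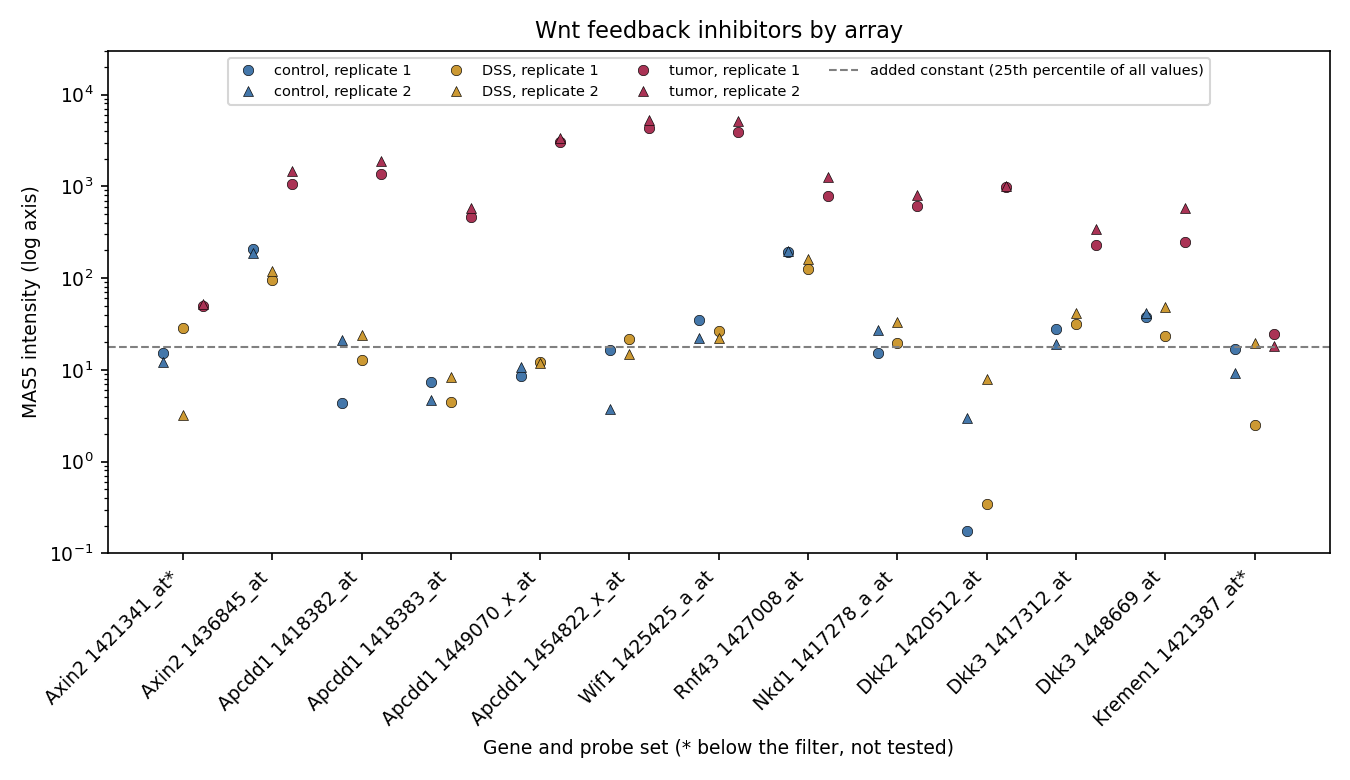
MAS5 intensity (log axis) of the 13 probe sets on each array, with colours for groups, circles for replicate 1 and triangles for replicate 2, and a dashed line at the constant of 17.8 added before log2. The tumor arrays lie above both control arrays for each probe set. Control and DSS arrays lie mostly near or below the dashed line, with Dkk2 scattered from 0.177 to 7.85. Those of Axin2 1436845_at and Rnf43 lie well above the line.

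Axin2 and Nkd1, the intracellular inhibitors, rose in tumor crypts. On its main probe set, 1436845_at, Axin2 had intensities of 206 and 188 on the control arrays, 94.1 and 120.0 on the DSS arrays, and 1067 and 1462 on the tumor arrays. The 3 groups did not overlap, with tumor highest and DSS lowest, but the difference between DSS and control did not pass the test. The tumor change against control was 2.56 ± 0.22 on the log2 scale (SE, limma, adjusted p = 0.000344), and between arrays of the same number it was 2.28 and 2.85. A second Axin2 probe set, 1421341_at, stayed below the median on every array, with 15.1 and 12.3 in control, 28.7 and 3.23 in DSS and 49.2 and 51.8 in tumor crypts. It pointed the same way for the tumor, with a mean difference of 1.12 that was not tested. Without the filter this probe set had an adjusted p of 0.134, so of the 2 Axin2 probe sets 1 passed. Nkd1 measured 15.4 and 27.1 in control, 19.4 and 33.0 in DSS and 607 and 794 in tumor crypts. Control and DSS arrays overlapped near the added constant, and both tumor arrays lay far above them. Its tumor change was 4.21 ± 0.31 (limma, adjusted p = 0.000176), or 5.02 with 1 added in place of 17.8 and 2.64 with the median of all values, 107.4.

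Of the membrane inhibitors, Rnf43 and Apcdd1 rose in tumor crypts and Kremen1 was near background. Rnf43 measured 191 and 197 in control, 126 and 162 in DSS, and 789.8 and 1264 in tumor crypts. As with Axin2, the groups did not overlap and DSS was lowest. The tumor change was 2.26 ± 0.25 (limma, adjusted p = 0.00103), and since its control values were well above the added constant, the change only ranged from 1.88 to 2.36 over the 3 constants. Kremen1 measured 16.7 and 9.21 in control, 2.53 and 19.7 in DSS, and 24.9 and 18.0 in tumor crypts. It was below the array median throughout and was not tested. The tumor arrays were above both control arrays by a mean difference of 0.36, and 1 of them was below a DSS array. Without the filter its adjusted p was 0.594. A probe set this low on all arrays gives little measure of its gene.

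Apcdd1 was among the largest rises on the array. Its 4 probe sets are not independent, since 3 derive from the same sequence record and all read the same gene. On 1454822_x_at the intensities were 16.5 and 3.79 in control, 21.9 and 15.0 in DSS, and 4335 and 5329.9 in tumor crypts. On 1449070_x_at they were 8.49 and 10.8, then 12.1 and 12.0, then 3042 and 3341. The suffix x marks probes that may cross-hybridise with other transcripts, but the 2 probe sets without it had the same pattern. On 1418382_at Apcdd1 had 4.34 and 21.2 in control, 12.8 and 24.0 in DSS and 1345 and 1872 in tumor crypts. On 1418383_at it had 7.44 and 4.70, then 4.45 and 8.36, then 463 and 583. Control and DSS values were thus at the low end of the array, from the 9th to the 31st percentile of all probe sets, and tumor values reached the 73rd to the 97th. The tumor changes were 7.47 ± 0.29 and 6.87 ± 0.23 on the probe sets with the x and 5.77 ± 0.35 and 4.50 ± 0.33 on the others. Adjusted p-values from limma ran from 6.57e-06 to 0.000175. Only 5 of the 12146 tested probe sets had a larger rise than the first of these. Because every control value but 1 lay below the added constant, these sizes depend on it: 1418383_at changed by 6.23 with 1 added and by 2.47 with the median added.

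Each of the secreted inhibitors rose in tumor crypts. Wif1 measured 34.7 and 22.1 in control, 26.7 and 22.1 in DSS, and 3896 and 5130.5 in tumor crypts. Control and DSS overlapped, and the tumor arrays stood apart with a change of 6.62 ± 0.24 (limma, adjusted p = 1.05e-05), the tenth largest rise of all probe sets tested. With the other constants it was 7.28 and 5.08. Dkk2 measured 0.177 and 2.98 in control, 0.348 and 7.85 in DSS, and 977 and 1003 in tumor crypts. The first value in control and in DSS lay in the lowest 1% of the array. Its tumor arrays were the closest of any member, at the 84th percentile on each. The change was 5.71 ± 0.33 (limma, adjusted p = 7.91e-05), against 8.84 with 1 added and 3.33 with the median added, the widest span of the members. Dkk3 had a smaller rise on both of its probe sets, which derive from the same sequence record. On 1417312_at it measured 28.1 and 19.1 in control, 31.2 and 41.5 in DSS, and 228 and 341 in tumor crypts. On 1448669_at it measured 37.4 and 41.4, then 23.4 and 48.6, then 248 and 577. The tumor changes were 2.85 ± 0.33 and 2.80 ± 0.42 (limma, adjusted p = 0.00114 and 0.00372). With the median added they were 1.57 and 1.75.

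**Figure D2:**
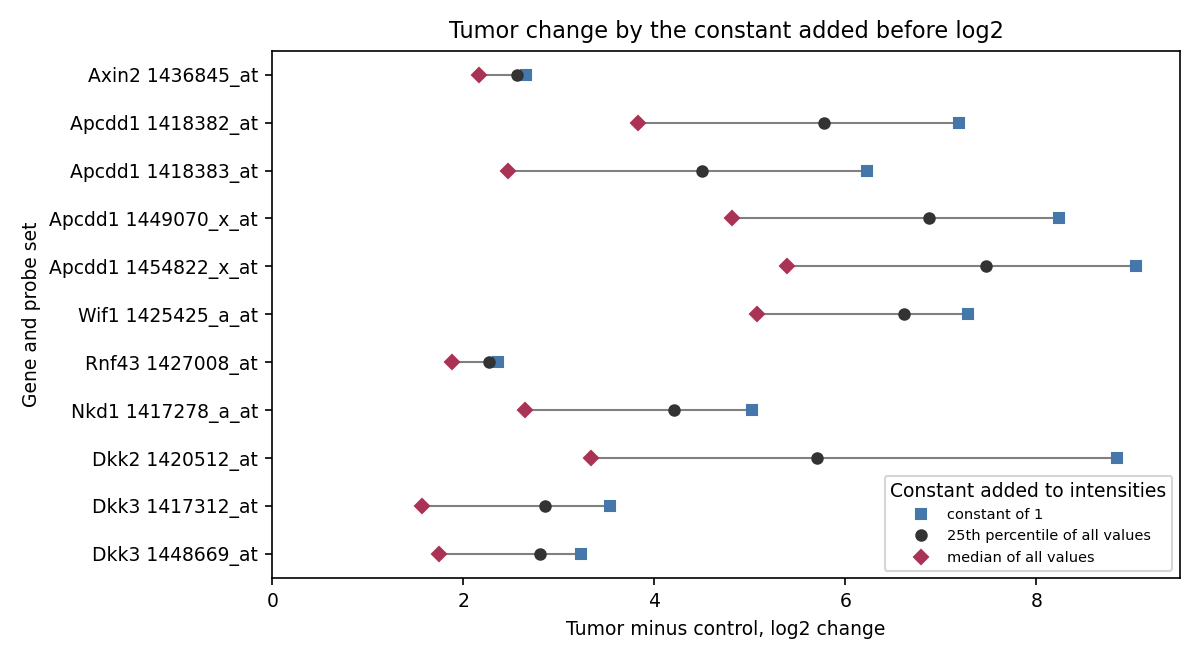
Tumor minus control log2 change (horizontal axis) of the 11 tested probe sets with 3 constants added to the intensities before log2. All stay above 0, those of Axin2 and Rnf43 hardly move, and Dkk2 spans 3.33 to 8.84.

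Across all members, 11 of the 11 tested probe sets were called higher in tumor than in control crypts, where 11.2% of all tested probe sets were called higher and 8.33% lower. With each array centred on its median, 32.4% of all calls were rises in place of 57.4%, a shift of the median over all probe sets from 0.035 to -0.24, and the 11 calls held. Without the filter, which removes its influence on the count, 11 of the 13 probe sets were called higher, against 5.1% of 22626 (3.06% lower). The exceptions were Kremen1 and the second probe set of Axin2. Tumor and control arrays did not overlap in 13 of 13, with the tumor higher, against 28.4% of all probe sets without the filter. The members were chosen with earlier results of these data known, and several probe sets read the same gene. The counts without the filter are therefore a description only. The median change of the 11 was 4.50 and their range 2.26 to 7.47, beside a median of 0.035 over all tested probe sets. In these bulk samples a larger share of cells that express a gene and more of its RNA per cell cannot be told apart.

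No difference between DSS and control crypts was called in these genes, most of which were too low in both groups to show a fall. None of the 11 tested probe sets passed, and limma called 0 of all 12146 (0% higher and 0% lower), with 284 at an unadjusted p under 0.05, or 2.34%. Axin2 was the member with that property, at -0.79 ± 0.22 (unadjusted p = 0.00724, adjusted p = 1.000). Both DSS arrays were below the control array of the same number, and the second probe set had a mean difference of -0.0086. Rnf43 had a change of -0.40 ± 0.25 (limma, adjusted p = 1.000), with -0.54 and -0.26 between arrays of the same number. The 2 genes with intensities above the array medians in control crypts were thus the ones whose DSS arrays both lay below both control arrays. Probe sets that did not overlap and were lower made up 14.2% of all tested. Of the other 9 tested probe sets, 1 of Apcdd1 and 1 of Dkk3 did not overlap and were higher in DSS, beside 12.4% of all tested. The changes of those 9 lay between -0.13 and 0.41, and most of the values behind them were close to the added constant. Values that low leave no room to measure a fall.

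**Figure D3:**
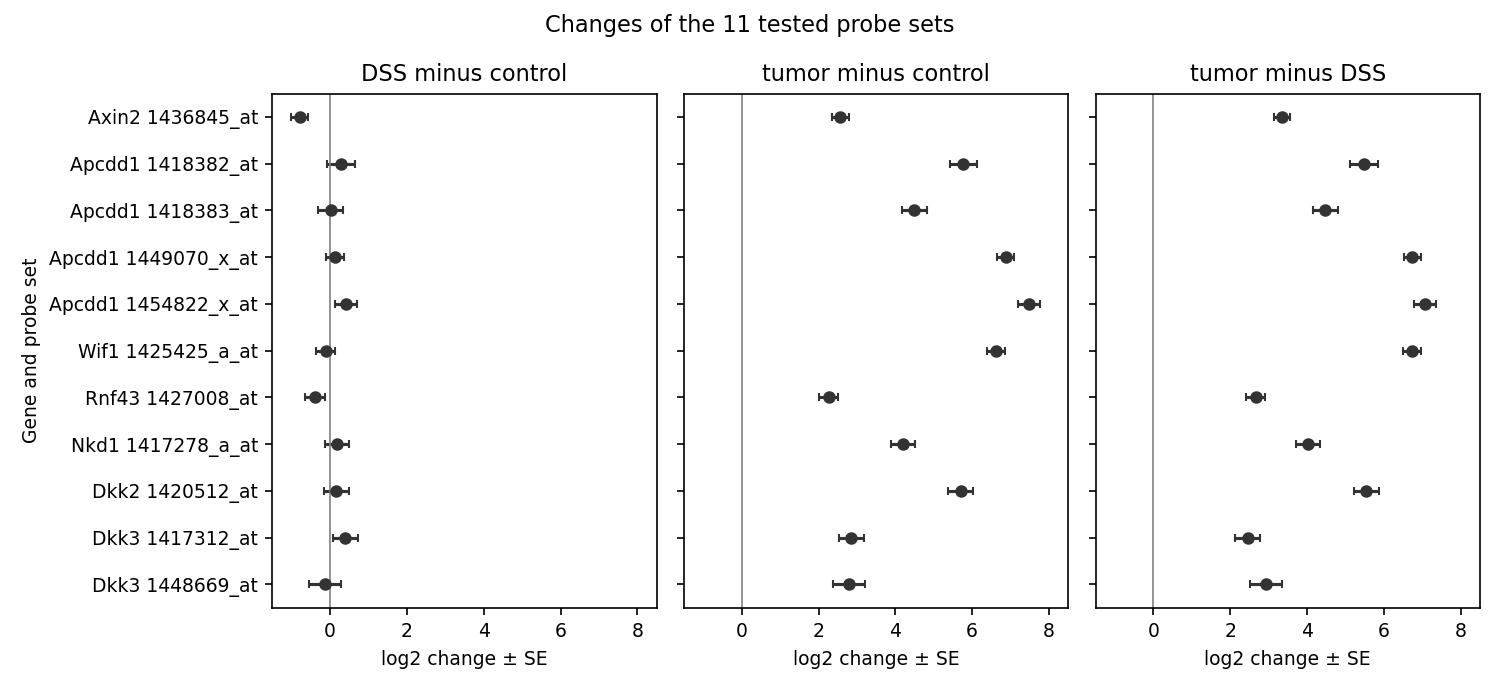
Log2 changes with their standard errors from limma for the 11 tested probe sets in the 3 comparisons. In DSS against control the points lie around 0, with Axin2 lowest at -0.79, and in both tumor comparisons all points lie above 2.

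Tumor crypts were also set against DSS crypts, which share the tumor arrays with the comparison above. All 11 tested probe sets were called higher in tumor (background 13.3% higher and 9.74% lower), with changes of 2.46 to 7.07. Without the filter 11 of 13 were called higher, against 6.27% of all (3.82% lower), and 12 of 13 did not overlap and were higher, against 29.6%. Since the members were chosen with earlier results known, these counts too are a description only. Axin2 differed by 3.35 ± 0.22 (limma, adjusted p = 0.000104), against 2.56 from control. Rnf43 differed by 2.66 ± 0.25 (limma, adjusted p = 0.000449), against 2.26 from control. These 2 genes had lower means in DSS than in control crypts, so their distance to the tumor was larger from DSS. Wif1 differed by 6.74, Dkk2 by 5.55, Nkd1 by 4.04, Dkk3 by 2.46 and 2.93 and Apcdd1 by 4.48 to 7.07. Kremen1 had a mean difference of 0.50 that was not tested, with overlapping arrays.

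The tumor arrays differed from each other in several members. All 11 tested probe sets had higher values on tumor replicate 2 than on replicate 1, by a median of 0.40 on the log2 scale, and Kremen1, which was not tested, was lower there by a difference of -0.25. The second probe set of Axin2, also not tested, differed by 0.054. Over all tested probe sets 50.1% were higher on replicate 2, but 9 of the 11 were selected through their tumor values, so the counts are a description only. Of the tested probe sets Dkk2 differed least, by 0.036, and Dkk3 most, by 1.16 on 1448669_at. Rnf43 differed by 0.67, Axin2 by 0.45, Wif1 by 0.40 and Nkd1 by 0.38. On the DSS arrays 8 of 11 were higher on replicate 2, beside 51.3% of all tested, and on the control arrays 6 of 11, beside 48.5%.

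Markers of other cell types also differed between replicates and groups. The epithelial markers were abundant on all arrays, with summed intensities of 96157 to 119428 over 15 genes, all tested. Of these, 2 were called higher in tumor than in control crypts and 0 lower. Cldn4, a claudin of tight junctions, rose by 3.58 ± 0.21 (177 to 2340, limma, adjusted p = 8.07e-05). Krt18, a keratin, rose by 0.63 ± 0.15 (limma, adjusted p = 0.0246). That call ended without the filter, without the intensity trend in limma and with median centring (0.34). It also ended without control replicate 2 (0.47), tumor replicate 1 (0.62) or tumor replicate 2 (0.64). Epcam, an epithelial adhesion gene, measured 12809 in control, 13633 in DSS and 12070 in tumor crypts. The fibroblast list (23 genes on the array) summed to 3803 and 7402 in control, 5017 and 9094 in DSS, and 5812 and 18141 in tumor crypts. Of its 17 tested genes 2 were called higher in the tumor, Vim and Fn1, and 1 lower, Fap. The median change of the 17 was -0.46, with 7 positive. Vim alone had a tumor mean of 4945 ± 2075 (SD, n = 2), so the tumor sums do not show the direction of most genes in the list. The call of Fn1 (2.34) ended without control replicate 1 (2.36) or 2 (2.32), and that of Fap (-1.73) without control replicate 2 (-1.26) or tumor replicate 2 (-1.51). Without tumor replicate 2, 8 of the 17 were called lower. The leukocyte list (20 genes) summed to 778 and 1939 in control, 632 and 2073 in DSS, and 3700 and 9582 in tumor crypts, with 1 of 6 tested genes called, Lyz2. The endothelial list (12 genes) summed to 342 and 743 in control, 391 and 855 in DSS, and 709.6 and 2260 in tumor crypts, with 0 of 2 called. Smooth muscle markers (12 genes) summed to 1742 and 5845 in control, 2397 and 5465 in DSS and 1007 and 2291 in tumor crypts, with 0 of 8 called, or 3 lower without control replicate 1. Negative changes were measured for all 8. No marker was at 0, since the lowest value in the table was 0.0615.

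Replicate 2 had the higher sum in each group for these 4 lists, and tumor replicate 2 was the highest of all arrays for fibroblast, endothelial and leukocyte markers. Tumor replicate 1 had lower fibroblast, endothelial and smooth muscle sums than control replicate 2, but a higher leukocyte sum. Those 2 arrays are a single pair chosen after the sums were seen, with no test. Between them Rnf43 differed by 1.91, Wif1 by 6.62, Dkk2 by 5.58, Dkk3 by 2.74 and 2.17 and Kremen1 by 0.66. Axin2 differed by 2.40 on 1436845_at and 1.16 on 1421341_at, Nkd1 by 3.80 and Apcdd1 by 4.42 to 7.66. The leukocyte sum was higher on both tumor arrays than on any other, but Lyz2 alone had a tumor mean of 3955 ± 1696 (SD, n = 2). The median tumor change of the 6 tested leukocyte genes was 1.40. It was 2.53 without tumor replicate 1 and 0.20 without tumor replicate 2. The part of these cell types in the members' changes was not tested.

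**Figure D4:**
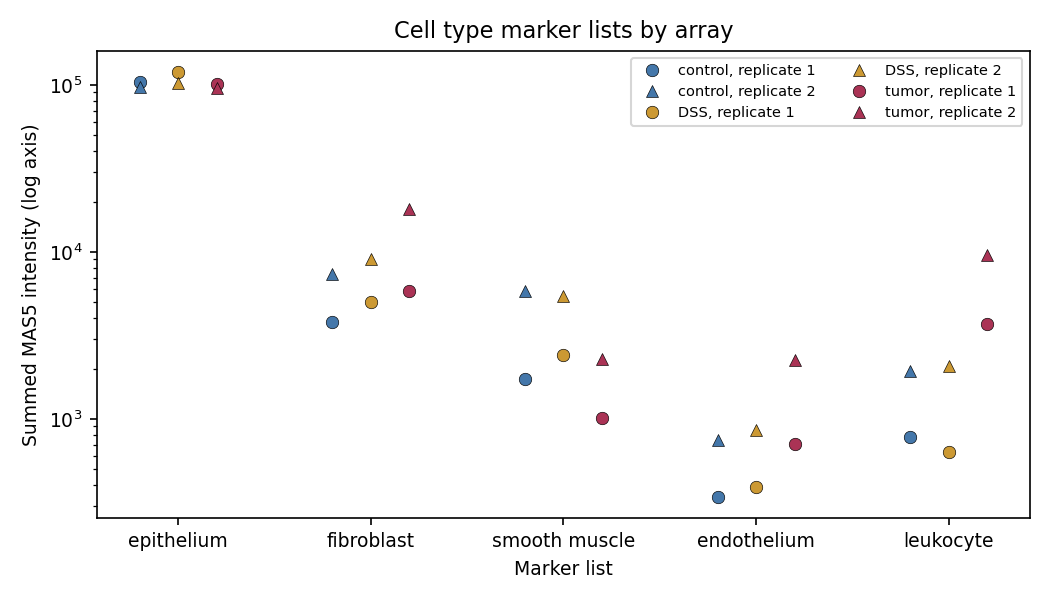
Summed MAS5 intensity (log axis) of 5 cell type marker lists on each array, with colours for groups, circles for replicate 1 and triangles for replicate 2. The epithelial sum is level, leukocyte sums are highest on the tumor arrays, and the fibroblast sum of tumor replicate 1 lies below that of control replicate 2. On the tumor arrays Lyz2 is a large part of the leukocyte sums and Vim of the fibroblast sums.

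A pair of technical measures also differed between arrays. Poly-A control transcripts averaged 312 to 394 on 4 arrays, with the first control array (777) and the first DSS array (1168) above them. The 3' to 5' log2 ratio of actin, a sign of RNA quality, was lower in tumor (0.95 and 1.04) than elsewhere (1.20 to 1.63). Its part in the tumor changes was not tested.

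The rest of the Wnt pathway was described from fixed lists, with the probe set of highest mean for each gene. Among 7456 genes so represented, 12.4% were called higher and 9.15% lower in the tumor, and the median change was 0.046. As with the members, some of these genes were high enough to be tested in tumor crypts alone. Secreted and cell-surface modulators had 5 of 7 tested genes higher and 1 lower, with a median of 2.07. Among them Notum, an enzyme that inactivates Wnt ligands, rose from 36.3 ± 9.05 to 1235 ± 339 (mean ± SD, n = 2 and 2), by 4.52 ± 0.28 (limma, adjusted p = 9.16e-05). Igfbp4, a secreted binding protein, rose by 4.65, Bambi, a pseudoreceptor of TGF-beta signalling, by 2.07 and Tpbg, a surface glycoprotein that dampens Wnt signalling, by 2.02. Chosen after their values were seen, Sulf2 rose by 2.61 and Shisa2 had a change of -0.54, whose call ended in 10 of the 16 other settings.

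The list of intracellular and other negative regulators had 4 of 25 tested genes higher and 2 lower. Not every gene in it acts only as an inhibitor, Csnk1e among them. The median of the list was 0.089 and became -0.17 with median centring. Apc, the core of the destruction complex, had a change of 0.053 and Axin1, the constitutive relative of Axin2, of 0.49, neither past the test. Gsk3b, a kinase of the complex, was at 0.19 (limma, adjusted p = 0.623). Sox17, a transcription factor that opposes beta-catenin, rose by 5.78, and Csnk1e and Nlk, kinases of the pathway, by 2.54 and 1.29. Tcf7l1, a repressor of the TCF family, fell by 1.41. Chosen after their values were seen, Tle3 at 1.27 and Tle4 at -1.01, which encode co-repressors, had unstable calls. That of Tle3 ended without control replicate 1 (1.50), control replicate 2 (1.05) or tumor replicate 2 (0.88). That of Tle4 ended without control replicate 1 (-0.66), tumor replicate 1 (-0.67) or either DSS array (-1.01). In the fit without the filter, the same 25 genes had 3 called higher and 1 lower, with genes that had failed the filter not counted. The counts were the same without the intensity trend in limma.

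Of 25 ligand and secretion genes 3 were tested, and Wnt6 and Wnt10a rose by 2.85 and 3.14. Wls, which carries Wnt proteins to the surface, was at -0.17. Receptors and transducers had 2 of 13 higher, Lgr5 at 2.47 and Ptk7 at 2.09, and 1 lower, the Frizzled gene Fzd5 at -0.998. The Fzd5 call ended without the filter, with only the 2 groups compared fitted, and whichever array but control replicate 2 was left out. The median of that list was 0.31. Ctnnb1, which encodes beta-catenin, was at 0.32 (limma, adjusted p = 0.144) and passed at 0.54 after quantile normalization. The list of other Wnt target genes, which shares Lgr5, Lef1, Tcf7, Notum and Znrf3 with the lists above, had 18 of 24 higher and 1 lower, with a median of 1.41. Besides Notum, those of smallest p were Mmp7, a matrix metalloproteinase, at 6.87, the transcription factor Sp5 at 4.73 and Sox4 at 2.29. Cdx1, an intestinal identity factor, was the one called lower, at -0.80. Its call ended without the filter, and without control replicate 1 (-0.56), tumor replicate 1 (-0.83) or tumor replicate 2 (-0.78). In DSS crypts 0 genes of these lists were called, and the target Ascl2, a stem cell transcription factor, had the smallest p of them at -1.16 (limma, adjusted p = 0.545).

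**Figure D5:**
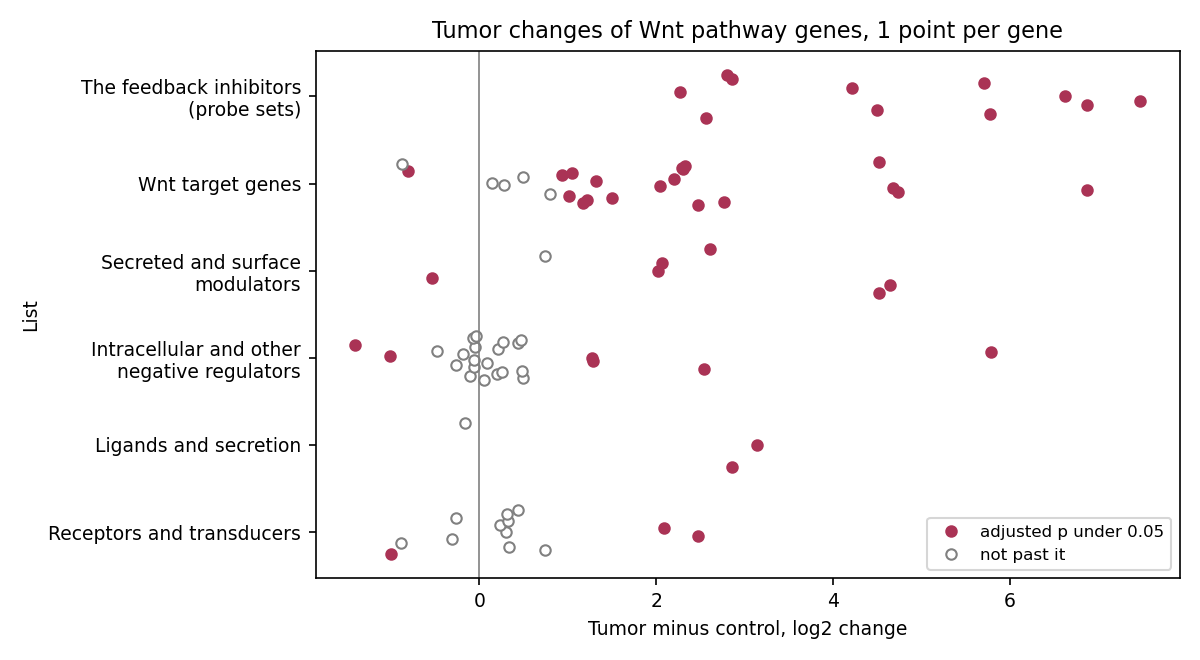
Tumor minus control log2 change of the tested genes of 5 Wnt pathway lists, 1 point per gene, and of the 11 member probe sets in the top row. Filled points passed at an adjusted p under 0.05. Most genes in the lists of intracellular regulators and of receptors lie near 0, and the members lie between 2.26 and 7.47.

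For each member called in the tumor, the nearest genes were sought by the root mean square distance of log2 values over the 6 arrays, each centred on its control mean, among 7456 genes. Rnf43 had the closest neighbours, Phldb2 at 0.078 and Evx1 at 0.091 on the log2 scale, against a median distance of 1.34 to all genes. Evx1 was also the second nearest to Axin2 at 0.24, after Rdh9 at 0.22. The DSS changes were -0.88 for Rdh9 and -0.47 for Evx1, lower than control like that of Axin2, which was not called. The DSS arrays entered the distance, so this likeness was part of how the neighbours were picked. Wif1 lay nearest Mt4 at 0.22 and Mmp7 at 0.23, and Mmp7 was nearest to Apcdd1 at 0.49, followed by Cxcl5, a neutrophil chemokine, at 0.52. The changes of Cxcl5 were 7.51 in tumor and 1.18 in DSS crypts, beside 7.47 and 0.41 for Apcdd1. Dkk2 lay nearest Tnfrsf11b at 0.17 and Sox17 at 0.18. Nkd1 lay nearest Alox12 and Evl at 0.19 each. Dkk3 lay nearest Fgfrl1 at 0.16 and Wnt6 at 0.17. With 6 arrays and a large tumor difference, such likeness mainly records that genes rose by like amounts.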

How the data were processed

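The authors deposited MAS5 signal intensities per probe set, per the submitters' processing notes; the MAS5 version is not given in the sources used here. Each array as deposited had a 2% trimmed mean of 500.2, as computed from the values. No detection calls or raw array files were used. Of 22690 probe sets, 64 controls were set aside; of the rest 20380 had 1 gene symbol, 691 several and 1555 none. All 8 members matched a RefSeq gene identifier. Intensities plus 17.8 were log2-transformed with no further normalization, and 3 groups were fitted with limma 3.58.1 (R 4.3.3) with an intensity trend; tests were 2-sided at an adjusted p of 0.05. The pipeline was tested on simulated data. Of 241 entries in 10 lists, with some genes listed more than once, 240 matched RefSeq symbols. Described genes were all members, the 2 nearest genes of each called member, and per pathway list up to 4 of smallest p in tumor and 2 in DSS crypts, with named exceptions. Members and lists were chosen with earlier results of these data known. Alternatives covered the added constant, filter, normalization, trend, groups fitted, replicate block, probe set handling and each array left out. No outlier test was made, since each group held 2 arrays. Figures used Python 3.11.15 and matplotlib 3.10.9.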

Additional observations from a re-analysis of the deposited data

How the results depend on the processing

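All 11 tested member probe sets stayed called higher in both tumor comparisons under each alternative that tested them. The 75th percentile filter tested 8 and called 8. With 1 probe set per gene 7 were tested and 7 called against control and 7 against DSS, a smaller count by construction. With an array left out, where the lone array of a group is assumed to vary like the others, the counts called were 11 to 11 in both tumor comparisons and 0 to 0 in DSS against control. Over all probe sets the tumor calls against control numbered 2378, and 1125 without control replicate 2, 1181 without tumor replicate 2 and 1546 with the 75th percentile filter. With the replicate number as a block, limma called 11 members against control (largest adjusted p 0.000844), 11 against DSS and 0 in DSS crypts, so it changed no member's call. It did change counts of other cell types' markers in tumor against control: smooth muscle went from 0 to 7 of 8 lower, leukocyte from 1 to 5 of 6 higher, endothelium from 0 to 2 of 2 higher, and fibroblast from 2 higher and 1 lower to 3 and 4 of 17. Calls over all 12146 tested probe sets also went up with the block, from 2378 to 2954, of which 1679 were higher and 1275 lower. Deviations of same-numbered arrays had correlations of 0.48 (control and DSS), 0.13 (control and tumor) and 0.47 (DSS and tumor) over probe sets, but 2 numbers are too few to show that they pair the arrays. In DSS against control, some changes that were not called turned sign with 1 array left out. Over the 6 such fits Apcdd1 1418382_at ranged from -0.12 to 0.69, Apcdd1 1418383_at from -0.0996 to 0.13, Wif1 from -0.32 to 0.081, Nkd1 from -0.054 to 0.40, Dkk2 from -0.091 to 0.41 and Dkk3 1448669_at from -0.47 to 0.22. Over the 16 alternatives Axin2 ranged from -0.94 to -0.51 and Rnf43 from -0.56 to -0.24. Their DSS arrays both lay below both control arrays, so leaving 1 array out could not turn their sign. Alternatives that change only the test leave the estimate as it is, so the unchanged sign is a description only. Signal near background limits the other members in control and DSS crypts.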
